A study of Mus musculus with 8 samples.

Results

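Guanylate-binding proteins (GBPs) are large GTPases of the dynamin superfamily that cells make in response to interferon. They assemble on the membranes of bacteria and of the vacuoles that hold pathogens, help to break these open, and feed the caspase-4 (caspase-11) inflammasome; several members are anchored to membranes by a lipid added at their C terminus. Interferon-gamma, acting in part through the transcription factor IRF1, is the strongest known inducer of the family, and type I interferon also induces it; in the heart, endothelial cells and macrophages are among the cells that can express these genes.

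Described here are the 8 genes of the deposited table named Gbp2, Gbp3, Gbp4, Gbp5, Gbp6, Gbp7, Gbp8 and Gbp9, out of 30445 genes in all. They were chosen by name and compared between hearts of C57 mice labelled wildtype and hearts labelled Mertk knockdown, with 4 libraries in each group. Mertk encodes a receptor tyrosine kinase used by phagocytes to clear apoptotic cells, and the title of the study ties macrophage MERTK to the type I interferon response in heart failure. All mice had undergone transverse aortic constriction, a narrowing of the aorta that overloads the left ventricle, and were sampled 8 weeks later. No sham-operated heart is among these groups. The labels do not give the age of the mice, the means or cell type of the knockdown, or whether each library is 1 mouse, so p-values measure the spread between these libraries, which may be technical.

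Library totals ran from 59287621 to 71571173 counts, and 3 counts corresponded to 0.0407 to 0.052 CPM (counts relative to library size, scaled by TMM factors). The 8 cardiomyocyte markers searched for summed to 31900 to 43600 CPM in wildtype and to 44600 to 51100 CPM in the labelled knockdown, without overlap, and none was at 0 in every library. Mertk, the targeted gene, did not separate the groups. It stood at 11, 10.4, 10.5 and 12.3 CPM in wildtype replicates 1 to 4 and at 12.8, 12.3, 10.6 and 11.8 CPM in labelled knockdown replicates 1 to 4 (edgeR log2 fold change 0.10, SE 0.11, adjusted p = 0.766). The second group is therefore called the labelled knockdown, and differences are stated as the labels assign the libraries. Transcripts of hepatocytes marked 5 libraries: the 16 hepatocyte markers, none of them at 0 in every library, summed to 342 CPM in wildtype replicate 1 and to 265 to 343 CPM in the 4 labelled knockdown libraries, but to 52.4 to 63.5 CPM in wildtype replicates 2, 3 and 4.

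The 8 genes lie in 2 clusters on mm10. On chromosome 3, plus strand, the order is Gbp5 (142493978 to 142522344), Gbp7 (142530342 to 142550149), Gbp3 (142560026 to 142573209) and Gbp2 (142620602 to 142638008), with the family gene Gbp2b between the last pair. On chromosome 5, minus strand, the table lists Gbp8 (105014150 to 105053556), Gbp9 (105077630 to 105110277), Gbp4 (105115767 to 105139586) and Gbp6 (105270702 to 105293696), with Gbp10 between Gbp4 and Gbp6 and Gbp11 beyond Gbp6.

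The promoters of the chromosome 3 members are shown because windows were available for these members only. Gbp4 and Gbp9 on chromosome 5 varied as closely with them from library to library, as described further on. Windows of 300 bases, from 250 bases before to 50 after the annotated start, were available in RefSeq (GRCm38.p6, the build of mm10) for 4 of the 8 members: Gbp2, Gbp3, Gbp5 and Gbp7. Gbp4, Gbp6, Gbp8 and Gbp9 had no entry. Capitals mark matches, on either strand, to the core of the interferon-stimulated response element (ISRE, bound by IRF factors), searched as GAAA, any 2 bases, GAAA, and to the gamma-activated site (GAS, a response element of interferon-gamma), searched as TTC, any 3 bases, GAA. All windows are on the plus strand and read 5′ to 3′; that of Gbp5 lies inside the gene as the deposited table bounds it, at a later start.
Gbp5 (chr3:142496684-142496983): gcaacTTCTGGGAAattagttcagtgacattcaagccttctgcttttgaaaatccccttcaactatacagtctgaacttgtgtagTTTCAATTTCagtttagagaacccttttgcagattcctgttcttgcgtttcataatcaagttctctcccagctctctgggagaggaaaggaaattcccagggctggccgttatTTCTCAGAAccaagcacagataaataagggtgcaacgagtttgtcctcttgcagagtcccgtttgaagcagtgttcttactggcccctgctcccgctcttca
Gbp7 (chr3:142530086-142530385): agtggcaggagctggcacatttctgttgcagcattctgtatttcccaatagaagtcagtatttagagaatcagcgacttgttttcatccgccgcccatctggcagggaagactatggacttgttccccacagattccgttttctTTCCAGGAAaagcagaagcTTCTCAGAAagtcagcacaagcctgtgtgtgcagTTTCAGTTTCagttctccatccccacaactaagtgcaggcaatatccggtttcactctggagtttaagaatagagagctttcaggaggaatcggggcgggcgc
Gbp3 (chr3:142559794-142560093): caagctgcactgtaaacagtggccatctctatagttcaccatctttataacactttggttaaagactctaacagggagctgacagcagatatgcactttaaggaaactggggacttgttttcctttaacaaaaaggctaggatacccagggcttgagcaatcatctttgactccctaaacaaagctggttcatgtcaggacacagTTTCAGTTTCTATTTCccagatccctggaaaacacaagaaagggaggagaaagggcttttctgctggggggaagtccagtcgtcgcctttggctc
Gbp2 (chr3:142620413-142620712): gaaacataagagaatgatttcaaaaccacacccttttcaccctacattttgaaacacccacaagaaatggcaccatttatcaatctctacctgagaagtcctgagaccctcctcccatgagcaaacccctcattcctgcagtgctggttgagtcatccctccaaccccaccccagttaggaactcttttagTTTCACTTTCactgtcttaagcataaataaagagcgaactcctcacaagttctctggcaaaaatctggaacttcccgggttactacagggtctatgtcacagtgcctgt

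Each of these windows held the ISRE core, as TTTCAATTTC in Gbp5, TTTCAGTTTC in Gbp7, TTTCACTTTC in Gbp2, and in Gbp3 as a pair of overlapping matches, TTTCAGTTTC and TTTCTATTTC. The match began 165 bases before the start in Gbp5, 53 in Gbp7, 45 in Gbp3 and 59 in Gbp2. Gbp5 and Gbp7 held 2 GAS matches each, none of which overlapped an ISRE match; the Gbp2 and Gbp3 windows shown held none. Gbp3 has a second annotated start downstream, at chr3:142560106-142560405, whose window held neither motif, and Gbp2b held 1 ISRE core. Among all 32851 windows of the RefSeq table, 3.44% held the ISRE core and 8.3% the GAS letters. A match describes letters in the window and is not evidence of binding.

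In levels per length, Gbp6 was the highest member in both groups and Gbp8 the lowest. The authors' deposited FPKM (fragments scaled to transcript length and library size) gave Gbp6 47.3 ± 25.9 in wildtype and 11.4 ± 3.12 in the labelled knockdown (SD, n = 4 each, as for all means below). Gbp2 followed with 24.3 ± 18.9 and 7.01 ± 0.698 FPKM. In wildtype Gbp3 (15.8 ± 10.9 FPKM), Gbp4 (14 ± 10.8), Gbp7 (13.4 ± 9.34) and Gbp9 (12 ± 7.17) differed from each other by less than their spread. Gbp5 stood at 5.88 ± 4.57 FPKM and Gbp8 at 0.477 ± 0.284. In the labelled knockdown the order was Gbp6, Gbp2, Gbp9 (5.9 ± 0.987 FPKM), Gbp7 (4.24 ± 0.489), Gbp3 (4.2 ± 0.623), Gbp4 (3.22 ± 0.483), Gbp5 (1.69 ± 0.1) and Gbp8 (0.256 ± 0.189). Gbp9 thus ranked above Gbp3, Gbp4 and Gbp7 there, while Gbp7 and Gbp3 did not differ beyond their spread.

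None of the 8 genes was called different between the groups by edgeR after adjustment over all genes, although all 8 log2 fold changes were below 0. Wildtype replicates 2 and 4 held several times more GBP transcript than any other library, while wildtype replicates 1 and 3 stood close to the labelled knockdown. Gbp6 was the member whose 4 wildtype libraries lay farthest above the labelled knockdown. All 8 members passed the filter on low counts, and each had counts in both groups.

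**Figure D1:**
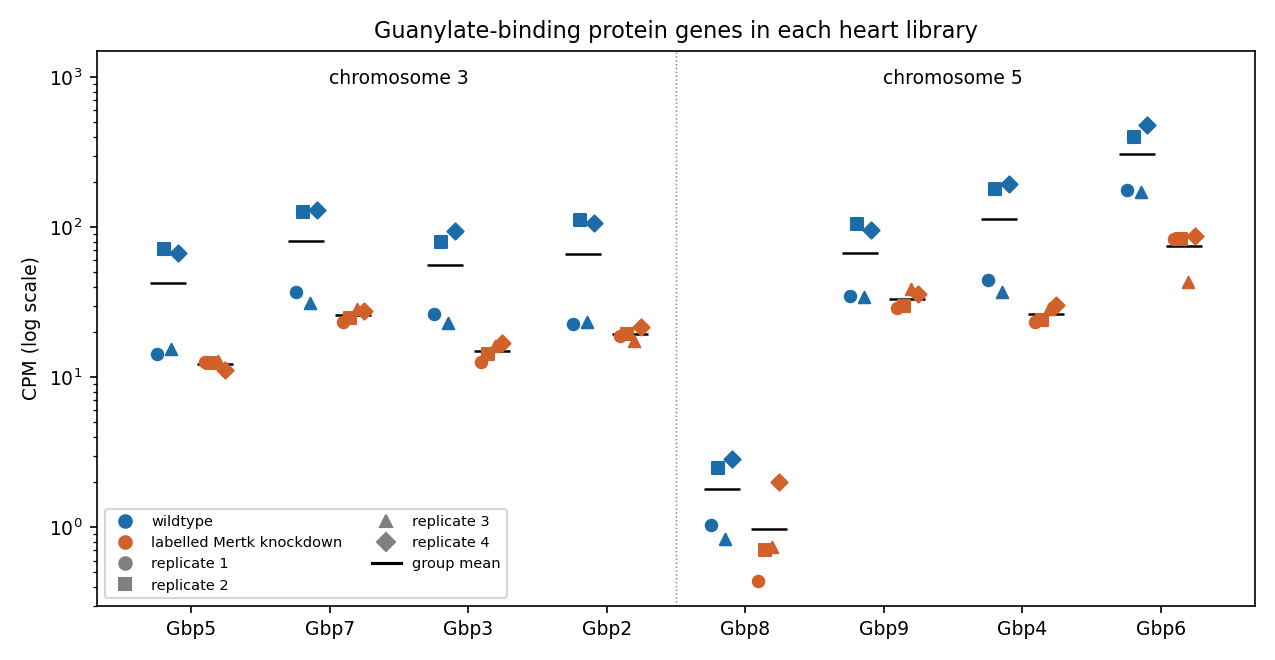
Each point is the CPM (log axis) of 1 member in 1 library, in blue for wildtype and orange for the labelled Mertk knockdown, with the replicate number given by the symbol and the group mean by a bar; genes are in map order on chromosomes 3 and 5. Wildtype replicates 2 and 4 (squares and diamonds) lie highest for every member, and only for Gbp6 do wildtype replicates 1 and 3 (176 and 171 CPM) also stand well above the labelled knockdown libraries (43.4 to 87.4 CPM).

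Among the chromosome 3 genes, Gbp2 encodes a GBP that coats pathogen vacuoles. It was at 22.6, 112, 23.2 and 107 CPM in wildtype replicates 1 to 4 and at 18.8, 19.4, 17.3 and 21.6 CPM in labelled knockdown replicates 1 to 4. The groups did not overlap, but the lowest wildtype library was only 1.04 times the highest labelled knockdown library. The means were 66.1 ± 50 and 19.3 ± 1.78 CPM (edgeR log2 fold change −1.78, SE 0.58, 95% interval −3.15 to −0.41, adjusted p = 0.279).

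Gbp5, which can assemble on the Golgi apparatus and has been linked to inflammasome activation, had a near-identical profile at a lower level. Its wildtype libraries stood at 14.2, 71.8, 15.3 and 67.8 CPM and its labelled knockdown libraries at 12.7, 12.5, 12.9 and 11.2 CPM. Wildtype replicates 1 and 3 were 1.16 and 1.25 times the labelled knockdown mean, and replicates 2 and 4 were 5.84 and 5.51 times that mean. Its edgeR log2 fold change was −1.78, with an SE of 0.58 and an adjusted p of 0.278.

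Gbp3 had 26.3, 80, 23 and 95 CPM in wildtype and 12.7, 14.2, 16.2 and 16.8 CPM in the labelled knockdown. The groups were farther apart than for Gbp2 and Gbp5, with the lowest wildtype library 1.37 times the highest labelled one (edgeR log2 fold change −1.90, SE 0.49, adjusted p = 0.172). Gbp7, whose product takes part in the oxidative killing of bacteria, had 37.2, 126, 31 and 131 CPM against 23.2, 24.8, 28.3 and 27.6 CPM. Its lowest wildtype library was 1.09 times the highest labelled one (edgeR log2 fold change −1.65, SE 0.50, adjusted p = 0.239).

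On chromosome 5, Gbp6 was the most abundant member and had the smallest p. Wildtype replicates 1 to 4 held 176, 398, 171 and 482 CPM, and labelled knockdown replicates 1 to 4 held 84, 83.2, 43.4 and 87.4 CPM. All 4 wildtype libraries were at least 1.96 times the highest labelled knockdown library, and labelled knockdown replicate 3 stood apart below the other 3. The means were 307 ± 158 and 74.5 ± 20.8 CPM, a 4.12-fold difference (edgeR log2 fold change −2.04, SE 0.40, 95% interval −2.96 to −1.12, adjusted p = 0.0838). It passed without wildtype replicate 1 (log2 fold change −2.23, edgeR adjusted p = 0.0352).

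Gbp4 had the widest wildtype range of the members, 5.28-fold from lowest to highest library. Its wildtype values were 44.2, 179, 36.9 and 195 CPM and its labelled knockdown values 23.2, 23.9, 28.3 and 30.2 CPM. The groups did not overlap (edgeR log2 fold change −2.11, SE 0.58, adjusted p = 0.205), and wildtype replicates 2 and 4 reached 6.77 and 7.38 times the labelled knockdown mean.

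Gbp9 and Gbp8 overlapped between the groups. Gbp9 stood at 34.9, 105, 34.5 and 96.3 CPM in wildtype and at 28.8, 29.7, 38.6 and 36.1 CPM in the labelled knockdown, so that wildtype replicates 1 and 3 lay within the labelled range (edgeR log2 fold change −1.02, SE 0.40, adjusted p = 0.35). Gbp8 had few counts, 48 to 210 counts per wildtype library and 29 to 136 per labelled knockdown library. It stood at 1.04, 2.47, 0.833 and 2.85 CPM and at 0.437, 0.71, 0.736 and 2 CPM (edgeR log2 fold change −0.89, SE 0.54, adjusted p = 0.563). Labelled knockdown replicate 4 was above wildtype replicates 1 and 3 for this gene.

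Counted together, 6 of the 8 members had all labelled knockdown values below all wildtype values, where 3.9% of the 17787 tested genes did. By edgeR 0 of the 8 were called lower, against 0.371% of tested genes, and 0 higher, against 0.275%, while 7 of the 8 had an unadjusted p under 0.05 and a lower level, against 6.32%. By DESeq2 4 of the 8, Gbp3, Gbp4, Gbp6 and Gbp7, were called lower, against 2.32% of the genes it gave an adjusted p (adjusted p of 0.00928, 0.0162, 0.000182 and 0.0461), and 0 higher, against 1.86%. The median log2 fold change of the members was −1.78, and that of all tested genes 0.00. On the deposited FPKM scale Gbp2 and Gbp7 overlapped, leaving 4 members whose groups did not overlap, against 3.26% of tested genes on that scale. In RNA from whole tissue, fewer cells of a type that expresses these genes and less RNA per cell cannot be told apart.

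The members also differed widely among the wildtype libraries. From lowest to highest wildtype library the members ranged over 2.82-fold (Gbp6) to 5.28-fold (Gbp4). The median range of the 13552 tested genes averaging 1 CPM or more was 1.37-fold, and 6.67% of these genes ranged over at least as much as Gbp6. In the labelled knockdown libraries the ranges were 1.15-fold (Gbp5) to 2.01-fold (Gbp6), with Gbp8 at 4.56-fold on its low counts. Relative to the labelled knockdown mean, the median member was 5.34 times higher in wildtype replicate 2 and 5.53 times in replicate 4, but 1.3 times in replicate 1 and 1.23 times in replicate 3. Wildtype replicates 2 and 4 exceeded every labelled knockdown library for all 8 members, and wildtype replicates 1 and 3 did so for 6, all but Gbp8 and Gbp9.

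In sum, the 8 members came to 356.4, 1074, 335.9 and 1177 CPM in wildtype replicates 1 to 4 and to 185.8 to 232.9 CPM in the labelled knockdown. The 4 genes on chromosome 3 summed to 92.52 to 100.3 CPM in wildtype replicates 1 and 3, to 389.3 and 401.1 CPM in replicates 2 and 4, and to 67.38 to 77.2 CPM in the labelled knockdown. The 4 on chromosome 5 summed to 243.3 and 256.1 CPM in wildtype replicates 3 and 1, to 684.4 and 775.8 CPM in replicates 2 and 4, and to 111 to 155.7 CPM in the labelled knockdown. Gbp6 made up 49.4% and 50.9% of the summed CPM in wildtype replicates 1 and 3, 37.1% and 41% in replicates 2 and 4, and 23.4% to 41.2% in the labelled knockdown. Wildtype replicates 1 and 3 thus had Gbp6 at 2.36 and 2.3 times its labelled knockdown mean, where the other 7 members were at 0.859 to 1.75 times theirs.

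The members followed each other closely within the groups. Deviations of log2 CPM from the group means over the 8 libraries correlated with Pearson's r of 0.63 to 1 (median 0.96) over the 28 pairs; these points share their libraries. The mean standardised profile of the members was −1.15, 1.17, −1.31 and 1.29 in wildtype replicates 1 to 4 and between −0.22 and 0.36 in the labelled knockdown. The r values thus rest mostly on the split among the wildtype libraries. Labelled knockdown libraries did not rank alike for all members: replicate 3 was lowest of them for Gbp6 (43.4 CPM) and highest for Gbp9 (38.6 CPM). The 15 pairs of Gbp2, Gbp3, Gbp4, Gbp5, Gbp7 and Gbp9 all had r of at least 0.96, across both chromosomes. Pairs with Gbp6 had 0.65 to 0.88, and pairs with Gbp8 0.63 to 0.79.

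**Figure D2:**
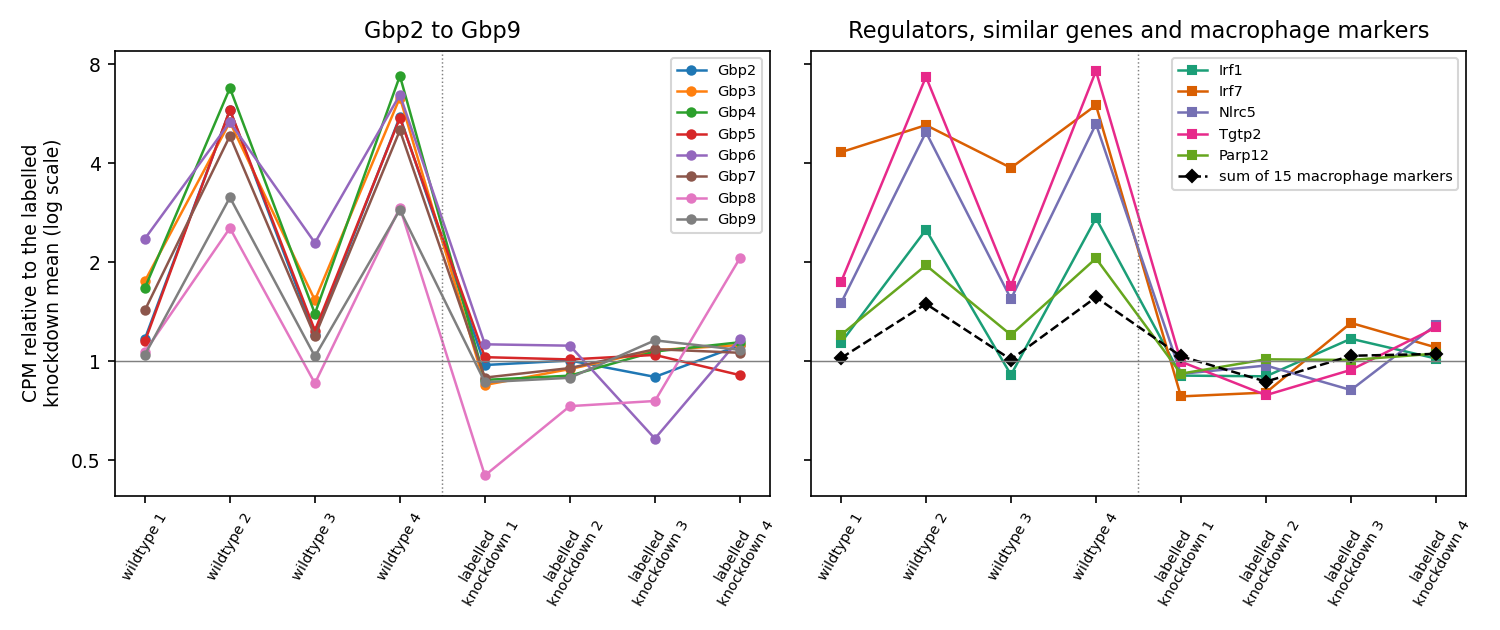
CPM in each library divided by the mean of the 4 labelled knockdown libraries (log axis), on the left for Gbp2 to Gbp9 and on the right for regulators, genes with a similar profile and the summed macrophage markers; lines join the libraries for legibility only. All 8 members are highest in wildtype replicates 2 and 4, Irf7 is high in all 4 of them (54.5 to 84.5 CPM), and the macrophage sum is highest in wildtype replicates 2 and 4 (443 and 464 CPM).

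Cell type markers were not even across the libraries. The 15 macrophage markers, none at 0 throughout, summed to 443 and 464 CPM in wildtype replicates 2 and 4, to 303 and 300 CPM in replicates 1 and 3 and to 257 to 312 CPM in the labelled knockdown. They were thus highest in the same 2 libraries as the members; 0 of the 15 were called by edgeR, 7 were lower at an unadjusted p under 0.05 and 3 were called lower by DESeq2, against 0.371%, 6.32% and 2.32% of all genes tested (median log2 fold change −0.49). The 7 monocyte markers summed to 14 and 17 CPM in wildtype replicates 2 and 4, to 8.61 and 10.4 CPM in replicates 3 and 1 and to 6.45 to 10.6 CPM in the labelled knockdown. Fibroblast markers (8) came to 1890 and 1030 CPM in wildtype replicates 2 and 4, 599 and 566 CPM in replicates 1 and 3 and 595 to 934 CPM in the labelled knockdown. The 8 atrial markers came to 2360 and 1140 CPM in wildtype replicates 2 and 4, 353 and 883 CPM in replicates 1 and 3 and 206 to 2050 CPM in the labelled knockdown. The 10 endothelial markers summed to 812 to 953 CPM in wildtype and 906 to 1030 CPM in the labelled knockdown. Of these 10, 4 were higher in the labelled knockdown without overlap, against 4.18% of all tested genes, and 3 were called higher by DESeq2, against 1.86%, while 0 were called by edgeR. Of the 8 cardiomyocyte markers, whose sums are given above, 2 were higher without overlap and 1 was called higher by DESeq2. The part of these cell types and of atrial tissue in the result was not tested.

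T and NK cells are known sources of interferon-gamma, and their markers were low in all libraries. The 12 T cell markers summed to 9.26 and 14.9 CPM in wildtype replicates 2 and 4 and to 17.9 and 9.59 CPM in replicates 1 and 3, and the 10 NK cell markers to 1.16 and 2.53 CPM and to 9.29 and 1.39 CPM. In the labelled knockdown they summed to 9.31 to 18.7 CPM and to 0.423 to 6.3 CPM. The part of these cells in the result was not tested. Ifng itself had 4 counts in wildtype replicate 1, 8 and 4 counts in labelled knockdown replicates 1 and 4 and 0 counts in the other 5 libraries, wildtype replicates 2 and 4 included. A count of 0 allows up to 0.0453 and 0.0407 CPM in those 2 libraries, so a difference in Ifng was not detectable at this depth.

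Hepatocyte transcripts ran opposite to the members in most libraries. The 2 libraries with the most GBP transcript, wildtype replicates 2 and 4, had the lowest hepatocyte sums (52.4 and 54 CPM), and the 5 libraries with high sums had low GBP levels. Wildtype replicate 3, with 63.5 CPM of hepatocyte markers, had GBP levels like those of wildtype replicate 1, with 342 CPM. Within the 5 libraries with hepatocyte transcripts, where wildtype is replicate 1 alone and is assumed to vary like the labelled knockdown, the log2 fold changes were −1.23 for Gbp6, −0.80 for Gbp3, −0.74 for Gbp4, −0.51 for Gbp7 and between −0.22 and −0.06 for the other 4, with edgeR adjusted p of 0.186 to 0.987. With the hepatocyte score as a covariate on all 8 libraries they were −1.07 for Gbp6 (SE 0.39), −0.60 for Gbp3, −0.51 for Gbp4 and −0.30 for Gbp7. Gbp2 and Gbp5 had −0.02 and −0.01, while Gbp8 and Gbp9 turned to 0.15 and 0.10. The edgeR adjusted p of the 8 members ran from 0.387 to 0.997. Among wildtype only replicate 1 had a hepatocyte sum like the labelled libraries, so this fit also leans on that library. In both settings Gbp6 had the largest fold change of the 8; without them Gbp4 had (−2.11, against −2.04 for Gbp6).

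**Figure D3:**
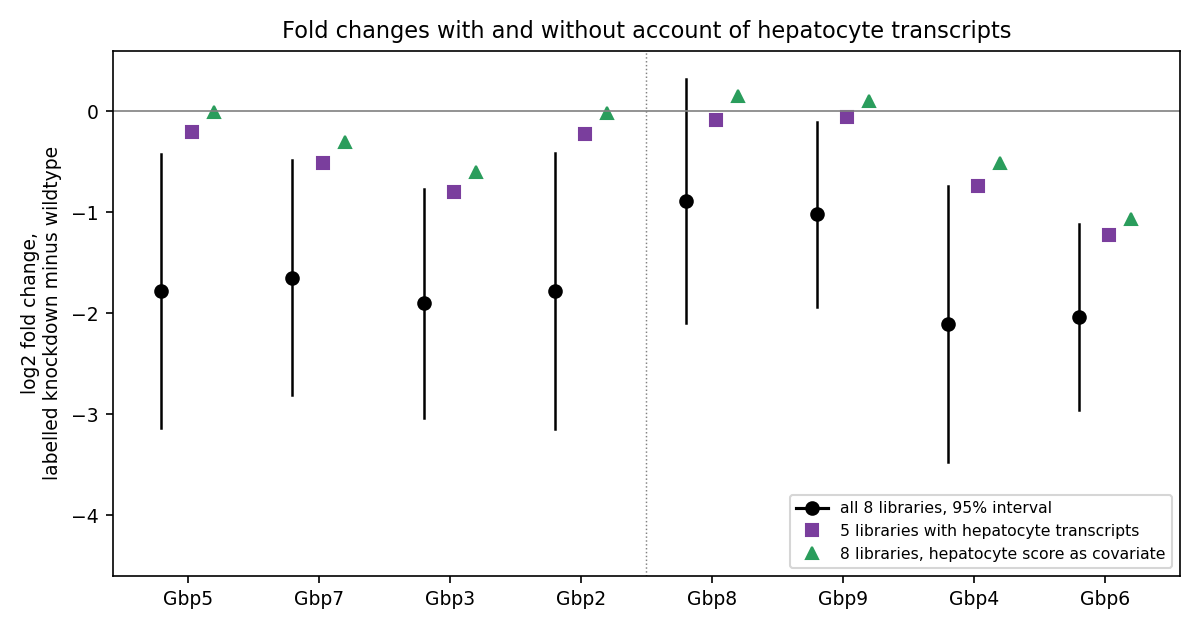
Log2 fold change (labelled knockdown minus wildtype) of each member from the edgeR fit of all 8 libraries with its 95% interval (black), from the 5 libraries with hepatocyte transcripts (purple squares) and with the hepatocyte marker score as covariate (green triangles). Gbp6 has −2.04, −1.23 and −1.07; Gbp2, Gbp5, Gbp8 and Gbp9 lie between −0.22 and 0.15 in the last 2 settings.

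Sequence similarity limits how far reads can be given to single members. Gbp6 and Gbp10 were 98.4% identical over their 1833 coding bases (GENCODE M21), and 37.3% of the 100-base windows of Gbp6 transcripts also occurred in another GBP transcript, nearly all of them in Gbp10. For Gbp8 the shared part was 4.39%, for Gbp9 1.65%, for Gbp4 1.64%, for Gbp3 0.694% and for Gbp7 0.428%, and Gbp2 and Gbp5 shared no such window. The table also lists Gm43302 (chromosome 5, 105214907 to 105293695, minus strand), which spans Gbp10 and Gbp6 and may take reads of both. Counts of Gbp6, Gbp10 and Gm43302 are therefore uncertain one by one.

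Gbp10 differed more than any of the 8 members in the size of its fold change. It stood at 44.3, 88.1, 40.1 and 114 CPM in wildtype and at 12.7, 12.2, 2.63 and 16.5 CPM in the labelled knockdown (edgeR log2 fold change −2.70, SE 0.60, adjusted p = 0.136, DESeq2 adjusted p = 0.000987). Its lowest wildtype library was 2.43 times its highest labelled one. Gm43302 had 63.4, 161, 70.3 and 219 CPM against 29.4, 25.1, 18.9 and 30.1 CPM (edgeR log2 fold change −2.31, SE 0.43, adjusted p = 0.0754). Summing Gbp6 and Gbp10 gave 220, 486, 211 and 596 CPM against 96.7, 95.4, 46 and 104 CPM, with a log2 fold change of −2.15 (edgeR adjusted p = 0.0821). With Gm43302 added to the sum it was −2.19 (edgeR adjusted p = 0.0753).

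The balance between Gbp10 and Gbp6 was examined because a pattern was noticed in the data, and is given as a description without a test. Gbp10 made up 20.1%, 18.1%, 19% and 19.1% of the summed counts of the pair in wildtype replicates 1 to 4 and 13.2%, 12.8%, 5.72% and 15.9% in labelled knockdown replicates 1 to 4. The exact binomial 95% intervals, which cover counting error only, reached from 17.7% to 20.8% over the wildtype libraries and from 4.91% to 16.8% over the labelled ones. The means were 19.1% ± 0.816 and 11.9% ± 4.35, a difference of −7.18 percentage points, for a pair whose counts may be shared. The wildtype share stayed within 2 percentage points while the summed counts of the pair ranged over more than 2-fold.

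**Figure D4:**
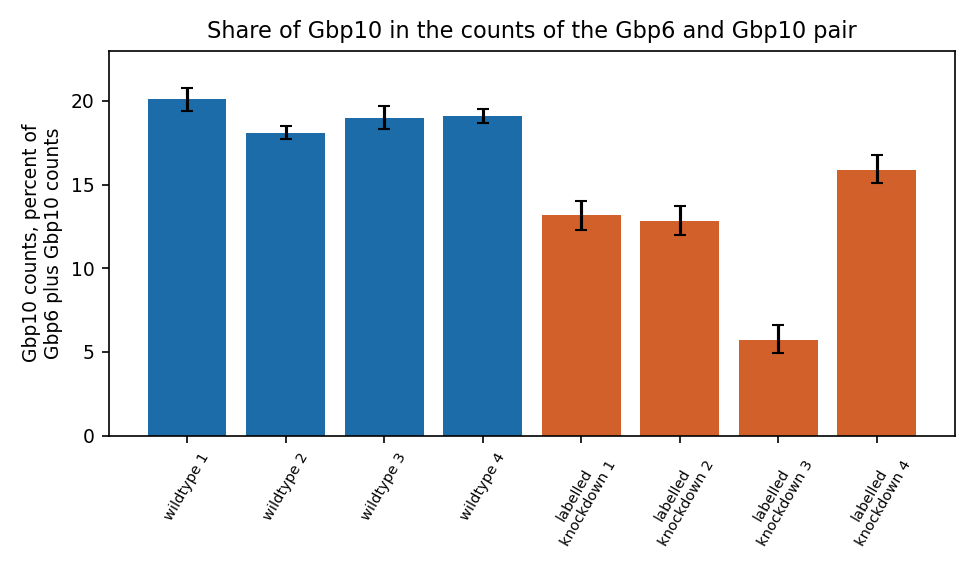
Bars give the counts of Gbp10 as a percent of the counts of Gbp6 plus Gbp10 in each library, with exact binomial 95% intervals for counting error. The wildtype libraries lie between 18.1% and 20.1%, all above the labelled knockdown libraries (5.72% to 15.9%).

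The remaining family genes had few counts. Gbp2b had 0 to 34 counts per library and Gbp11, annotated as a polymorphic pseudogene, 0 to 83. Their log2 fold changes were −0.74 (SE 0.95) and −1.61 (SE 0.95), and neither passed (edgeR adjusted p = 0.82 and 0.547). Gbp2b was at 0 counts in wildtype replicate 1, and its promoter window holds an ISRE core as the windows of its neighbours do.

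Upstream of the family, no interferon receptor chain was called by edgeR. The receptor chains Ifngr1 and Ifngr2 had log2 fold changes of −0.42 and 0.31 (edgeR adjusted p = 0.29 and 0.26), and the kinases Jak1 and Jak2 0.24 and −0.06.

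Irf1, an activator of GBP promoters, was not called. It had 24.8, 54.7, 19.8 and 59.3 CPM in wildtype and 19.7, 19.6, 25.5 and 22.2 CPM in the labelled knockdown, so the groups overlapped (edgeR log2 fold change −0.87, SE 0.35, adjusted p = 0.364). Of 13 IRF and class II transactivator regulators, 4 did not overlap and lay lower (30.8%, against 3.9% of all tested genes), and the median log2 fold change was −0.71. By DESeq2 4 were lower, against 2.32% of all genes, and 0 higher, against 1.86%. At an unadjusted edgeR p under 0.05, 7 were lower, against 6.32%, and 0 higher. By edgeR 1 was lower, against 0.371%, and 0 higher, against 0.275%. The gene called by edgeR was Irf7, an amplifier of type I interferon production, at 60.8, 73.5, 54.5 and 84.5 CPM against 11, 11.3, 18.4 and 15.5 CPM (edgeR log2 fold change −2.28, SE 0.20, adjusted p = 0.00125). Its wildtype libraries ranged over 1.55-fold. With the hepatocyte score as covariate, a fit that leans on wildtype replicate 1, its log2 fold change was −2.02 (edgeR adjusted p = 0.0211). Within the 5 libraries with hepatocyte transcripts, where wildtype is replicate 1 alone, it was −2.11. Wildtype replicates 1 and 3, where Gbp2, Gbp5 and Gbp9 were near the labelled knockdown, had Irf7 at more than 2 times every labelled library.

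In the list of type I and III interferon receptors and ISGF3, 8 genes were tested (median log2 fold change 0.03). By DESeq2 2 were lower, against 2.32% of all genes, and 2 lay lower without overlap (25%, against 3.9%). By edgeR 1 gene was lower, against 0.371% of all tested genes, and 0 higher, against 0.275%. The gene called by edgeR was Usp18, a brake on the type I interferon receptor, with 9.94, 18.4, 11.2 and 19.3 CPM against 2.71, 3.44, 5.67 and 5 CPM (edgeR log2 fold change −1.81, SE 0.29, adjusted p = 0.033). Leaving out wildtype replicate 2 or 4, or 1 of the labelled libraries, ended this call, with edgeR adjusted p between 0.0585 and 0.107. It also ended without the libraries with atrial transcripts, with a replicate block and in the limma fits. With the hepatocyte score as covariate, a fit that leans on wildtype replicate 1, the log2 fold change of Usp18 was −1.14 (edgeR adjusted p = 0.243). Within the 5 libraries with hepatocyte transcripts, where wildtype is replicate 1 alone, it was −1.23. Ifnar1 and Ifnar2, the receptor chains, had 0.16 and 0.01, and Stat2 and Irf9, components of ISGF3, −1.21 (edgeR adjusted p = 0.286) and −0.97 (edgeR adjusted p = 0.15, DESeq2 adjusted p = 0.00369).

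The immunity-related GTPases, which load with GBPs onto pathogen vacuoles, also lay lower in the labelled knockdown. All 7 tested members did so without overlap, where 3.9% of all tested genes did; 0 were called lower by edgeR, against 0.371%, and 7 by DESeq2, against 2.32% (median log2 fold change −2.61). Igtp had 66.8, 350, 59.5 and 594 CPM in wildtype and 17.4, 19.8, 21 and 37.1 CPM in the labelled knockdown (edgeR log2 fold change −3.49, SE 0.84, adjusted p = 0.162). Tgtp1 had 25.8, 111, 24.6 and 121 CPM against 14.1, 10.8, 10.6 and 15.9 CPM (edgeR log2 fold change −2.46, SE 0.60, adjusted p = 0.162).

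Of 13 tested relatives of the GBPs in the dynamin superfamily and other large GTPases 0 were called by edgeR, and the median log2 fold change was 0.07. At an unadjusted edgeR p under 0.05, 3 were lower, against 6.32% of all tested genes, and 1 higher. By DESeq2 3 were lower, against 2.32%. Without overlap 3 lay lower (23.1%, against 3.9%) and 1 higher, against 4.18%. Mx1, of the Mx family of large GTPases, had 1.88, 2.55, 1.91 and 3.01 CPM against 0.92, 0.332, 1.21 and 0.88 CPM (edgeR adjusted p = 0.134). Mx2, of the same family, had 3.19, 5.27, 4.7 and 6.33 CPM against 1.51, 1.69, 2.6 and 3.1 CPM (edgeR adjusted p = 0.137). The atlastins, which fuse endoplasmic reticulum membranes and are the nearest structural relatives of GBPs, had log2 fold changes of 0.11 (Atl1), −0.21 (Atl2) and −0.08 (Atl3), and the mitochondrial fusion GTPases Opa1, Mfn1 and Mfn2 0.26, 0.32 and 0.15; none of these 6 was called (edgeR).

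Of the genes that act with or after GBPs, 1 was called. Of 15 inflammasome and pyroptosis genes 2 lay lower without overlap (13.3%, against 3.9% of all tested genes). By edgeR 1 was lower, against 0.371%, and 0 higher, against 0.275% (median log2 fold change −0.12). The gene was Ninj1, which ruptures the plasma membrane of dying cells, at 37.2, 33.3, 34.1 and 37 CPM against 27.3, 26.5, 24.2 and 23.3 CPM (edgeR log2 fold change −0.48, SE 0.09, adjusted p = 0.0428); leaving out any 1 library ended its call (adjusted p of 0.0597 to 0.142). Casp4, which encodes the lipopolysaccharide-sensing caspase that GBPs engage, had −0.21 (edgeR adjusted p = 0.837), and Gsdmd, the pore former it cleaves, −0.39 (edgeR adjusted p = 0.572). Prenylation is the kind of lipid attachment that anchors some GBPs. Of 8 genes of protein prenylation in general, not all of which act on GBPs, 0 were called by edgeR and 0 by DESeq2 (median 0.03). Without overlap 0 lay lower, against 3.9% of all tested genes, and 1 higher, against 4.18%. At an unadjusted edgeR p under 0.05, 1 was lower, against 6.32% of all tested genes, and 0 higher. Those with the smallest p were Fntb at −0.44 (edgeR adjusted p = 0.272) and Rabggta at 0.17 (0.534). Of 15 genes of ATG8 conjugation and vacuole ubiquitin 0 were called by edgeR, and 2 were lower by DESeq2, against 2.32% of all genes (median −0.14). At an unadjusted edgeR p under 0.05, 4 were lower, against 6.32%, and 0 higher. Those with the smallest p were Sqstm1, a ubiquitin-binding autophagy receptor, at −0.52 (edgeR adjusted p = 0.221), and Rnf31, a ligase of linear ubiquitin chains, at −0.34 (0.255).

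The genes whose within-group profile was most like the mean of the 8 members were Parp12 (r = 0.992), Zc3hav1 (0.991), Nlrc5 (0.988), Cfb (0.987), Tgtp2 (0.987), C1qb (0.986), Igtp (0.983) and Parp10 (0.983), over the same 8 libraries. Likeness was Pearson's r of deviations of log2 CPM from the group means, among tested genes averaging 1 CPM or more, and is given as a description. Nlrc5, the transactivator of MHC class I genes, had 16.4, 54.3, 16.9 and 57.5 CPM in wildtype and 10, 10.6, 8.93 and 14.1 CPM in the labelled knockdown. Cfb, complement factor B, had 7.62, 20.8, 6.78 and 23.6 CPM against 4.3, 5.36, 5.44 and 7.23 CPM, so that wildtype replicate 3 fell below labelled knockdown replicate 4. C1qb, a macrophage transcript of complement C1q, had 29.1, 50.6, 29.7 and 49.5 CPM against 26, 24.6, 25.2 and 26.9 CPM. Parp12, an interferon-stimulated ADP-ribosyltransferase, had 26.1, 42.5, 26.1 and 44.6 CPM against 19.9, 22, 21.9 and 22.9 CPM. Zc3hav1, an antiviral zinc finger protein, had the pattern at small size, with 21.8, 28.5, 20.6 and 28.4 CPM against 20.8 to 22.7 CPM. None of the 8 was called by edgeR (adjusted p of 0.109 to 0.543). By DESeq2 Parp12, Nlrc5, Cfb, Tgtp2, C1qb, Igtp and Parp10 were called lower (adjusted p of 0.000307 to 0.0432), against 2.32% of all genes. Zc3hav1 was not (DESeq2 adjusted p = 0.553).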

How the data were processed

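RNA from 8 mouse heart libraries was compared between 4 wildtype and 4 labelled Mertk knockdown libraries. The deposited table gives whole-number read counts and FPKM values by the authors, per the file headers. The submitters' processing notes name cutadapt 1.9, HISAT2 2.2.1, StringTie 2.1.6, DESeq2, edgeR and build mm10, without role or order; the annotation release and the use of strand in counting are not given in the sources used here. All 30445 genes entered edgeR 4.0.16 (TMM, filterByExpr, robust glmQLFit, glmQLFTest, two-sided, R 4.3.3), which left 17787 genes; adjusted p are Benjamini-Hochberg over all of them, called under 0.05. SE is the log2 fold change divided by the square root of F. DESeq2 1.42.0 and limma 3.58.1 were alternatives, with libraries left out in turn. The script was tested on simulated counts. Within groups, every pair of libraries differed beyond counting noise (lowest chi-square over its degrees of freedom 37.89), so none was counted as a duplicate. The members and gene lists were chosen with earlier results of these data known. Named were all family genes and Mertk, from each list up to 3 called genes, or the 2 with the smallest p where none was called, and the 8 genes with the most similar profile (no clone names). Other genes named were chosen after their values were seen. A gene of the interferon signalling lists is not reported here.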

Additional observations from a re-analysis of the deposited data

Results flagged for a closer look

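For Gbp6, labelled knockdown replicate 3 lay below the other 3 labelled libraries by 0.93 of the group's whole range in log2 CPM (43.4 against 83.2 to 87.4 CPM), and for Gbp10 by 0.835 of the range (2.63 against 12.2 to 16.5 CPM). Both exceed Dixon's 95% critical value for 4 libraries. In all, 26 groups of 4 values were searched and chance flags about 1 in 20 of them. The same library was not low for Gbp4 or Gbp9, also on chromosome 5 (28.3 and 38.6 CPM), and its total of 63378755 counts lay within the range of the other libraries. Without this library the log2 fold change of Gbp6 was −1.85 (edgeR adjusted p = 0.173) and that of Gbp10 −2.37 (edgeR adjusted p = 0.111).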

How the results depend on the processing

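Of the 8 members, 0 were called lower in the edgeR fit, and 4 by DESeq2; leaving out 1 library at a time gave 0 to 1, the 1 being Gbp6 without wildtype replicate 1. RLE or upper quartile factors, no filter, limma on log2(FPKM + 1) or log2(FPKM + 0.1), the libraries without atrial transcripts and both hepatocyte settings gave 0. With the hepatocyte score as covariate the sign turned for Gbp8 (0.15), Gbp9 (0.10), Gbp2b (4.2), Gbp11 (0.20) and Zc3hav1 (0.05), and within the 5 libraries with hepatocyte transcripts for Gbp2b (6.32) and Gbp11 (0.02); the cause was not tested. The groups share replicate numbers 1 to 4, and 3 of 8 libraries correlated best with their own number. With r between −0.15 and 0.18 over all pairs, this cannot settle whether the numbers pair the libraries. With a replicate block 0 members were called and 6 did not overlap (Gbp6 log2 fold change −1.95, edgeR adjusted p = 0.0527). Mertk was not called in any of these settings. The planned sum of copies by protein identity was not run; coding sequence was used, and the sums with Gbp10 and Gm43302 were chosen after seeing the data. Depth limits Gbp8, Gbp2b, Gbp11 and Ifng.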

Other observations

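Outside the members, 2 further interferon-inducible genes of the lists, chosen after their values were seen, lay lower in the labelled knockdown libraries. Neither passed edgeR's threshold. Both were called lower by DESeq2 (adjusted p = 0.000987 for Gvin1 and 3.58e-05 for Batf2), against 2.32% of all genes. Gvin1, a very large interferon-inducible GTPase, averaged 152 ± 68.6 CPM in the wildtype libraries against 65.1 ± 11.5 CPM (SD, n = 4 each; log2 fold change −1.22, edgeR adjusted p = 0.157), without overlap. Batf2, a transcription factor that partners IRF1, was at 5.23 ± 3.69 and 0.93 ± 0.218 CPM (log2 fold change −2.49, edgeR adjusted p = 0.0845), also without overlap. Among all tested genes 3.9% lay lower without overlap.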
